A study of Mus musculus with 24 samples.

Results

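The choroid plexus epithelium is described here through 10 genes, Ttr, Igfbp2, Enpp2, Sostdc1, Folr1, Kcnj13, Aqp1, Clic6, Kl and Otx2. They were chosen by symbol as known genes of this epithelium, with earlier results of these data known but not by a threshold on measured values. All 10 were listed among the 24411 genes of each deposited table. Bulk RNA sequencing was done on whole hippocampus and, in a separate experiment, on microglia captured from the hippocampus. All recipients were male C57BL/6 mice aged 20 months that received 8 tail vein injections of 100 µl over 24 days. Hippocampi came from mice given saline (n = 5), a plasma preparation from 3-month-old donors (n = 6) or the platelet fraction of that plasma resuspended in saline (n = 6). Microglia came from mice given saline (n = 3) or platelet factor 4, PF4, at 5 µg/ml (n = 4), and were taken by tissue dissociation, myelin removal and CD11b magnetic beads. Each library was from the hippocampus of 1 mouse, as the study counts its animals, so a whole hippocampus held whatever ventricular tissue stayed on it at dissection and the captured microglia held whatever other cells passed the beads. Libraries held 6140510 to 10522699 reads in hippocampus and 19855188 to 36342162 in microglia.

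The choroid plexus hangs in the brain ventricles as a folded sheet of epithelial cells over a core of leaky vessels and fibroblasts. Its epithelium secretes the cerebrospinal fluid, by moving ions and water from blood to ventricle, and adds carrier proteins, growth factor binding proteins and enzymes to it. The plexus is not part of the hippocampal formation, but the plexus of the lateral ventricle lies along the fimbria at the edge of the hippocampus. In bulk tissue, fewer cells of a type and less RNA in each cell cannot be told apart, and this holds for every level given here.

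The 250 bases before the annotated start of Kcnj13, the member nearest to Ttr in its variation among those with a listed promoter, and 30 bases around the 1 match found to TAATCC, the core letters known for the OTX family of homeodomain factors, are shown because Otx2 is itself a member and the members moved together. Both are from RefSeq on build GRCm38.p6, read 5′ to 3′ along the minus strand that carries these genes. Capitals mark the match, which reads as the reverse complement, and its first base lies 211 bases before 1 of the 4 listed starts of Otx2.
Kcnj13, chr1:87394730-87394979: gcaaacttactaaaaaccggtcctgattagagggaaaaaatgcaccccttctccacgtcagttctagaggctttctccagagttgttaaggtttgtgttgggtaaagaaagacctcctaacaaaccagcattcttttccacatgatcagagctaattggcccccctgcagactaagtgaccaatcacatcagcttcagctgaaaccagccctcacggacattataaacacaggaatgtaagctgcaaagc
Otx2, chr14:48665303-48665332: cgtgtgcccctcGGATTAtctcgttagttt

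Promoters were listed for 5 members, Igfbp2, Kcnj13, Kl, Aqp1 and Otx2, with 9 starts between them. TAATCC, searched on both strands in the 250 bases before each start, was found at 1 of these 9 starts and at 6.25% of the 32851 promoters in the table. A match is a description of letters, and no match says only that these letters were not in this window.

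The members varied more between mice than between treatments. Ttr, the carrier of thyroxine and of the retinol-binding protein in cerebrospinal fluid, had normalized counts (reads scaled by each library's size factor) of 15673, 20772, 848, 30495 and 19359 in saline hippocampi 7143, 7146, 7152, 7155 and 7596. After young plasma its lowest, median and highest values were 1897, 18238 and 43232, and after the young platelet fraction 1622, 20723 and 54993. The highest value was 64.8-fold above the lowest over the 17 hippocampi, and the 3 groups overlapped along nearly the whole range. Ttr took 0.0112% of all reads in saline 7152, where it ranked 1902 among genes by reads, and 0.743% in platelet 7154, where it ranked 3.

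The other secreted proteins spanned smaller ranges. Enpp2, autotaxin, the secreted enzyme that makes lysophosphatidic acid, had 13348, 21957, 2365, 25197 and 15126 in saline hippocampi in the order above. Its lowest, median and highest values were 4931, 15537 and 39110 after plasma and 4537, 16200 and 36963 after the platelet fraction, a 16.5-fold range over all 17. Saline 7152, low in Ttr, was again the lowest.

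Igfbp2, a secreted protein that binds insulin-like growth factors, had 194, 1061, 551, 1615 and 563 in the saline hippocampi. Its values ran from 248 to 2008 after plasma, with a median of 667, and from 377 to 2364 after the platelet fraction, with a median of 707. Here the order of the saline libraries was another one: saline 7143 was the lowest, and saline 7152 lay near the middle. Sostdc1, a secreted antagonist of bone morphogenetic proteins, ran from 30.7 to 697 over the 17 hippocampi.

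Folr1, the folate receptor through which this epithelium moves folate into the cerebrospinal fluid, followed Ttr library by library. It had 305, 459, 16.7, 606 and 347 in the saline hippocampi. Its lowest, median and highest values were 45.0, 358 and 918 after plasma and 37.8, 360 and 974 after the platelet fraction. The library lowest in Ttr was the lowest in Folr1, and the library highest in Ttr was the highest in Folr1. Kl, klotho, a membrane protein that serves as co-receptor for a fibroblast growth factor and is also shed, ran only from 96.0 to 1296 over the 17 hippocampi.

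Kcnj13, an apical potassium channel, ran from 50.1 to 1729 and Aqp1, the apical water channel, from 7.05 to 456. Clic6, of the chloride intracellular channel family, ran from 14.1 to 459, and Otx2, the transcription factor needed for the plexus to form, from 5.29 to 152. The ranges were 34.5-fold for Kcnj13, 64.8-fold for Aqp1, 32.6-fold for Clic6 and 28.7-fold for Otx2. In all 10 genes the ranges of the 3 treatment groups overlapped.

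**Figure D1:**
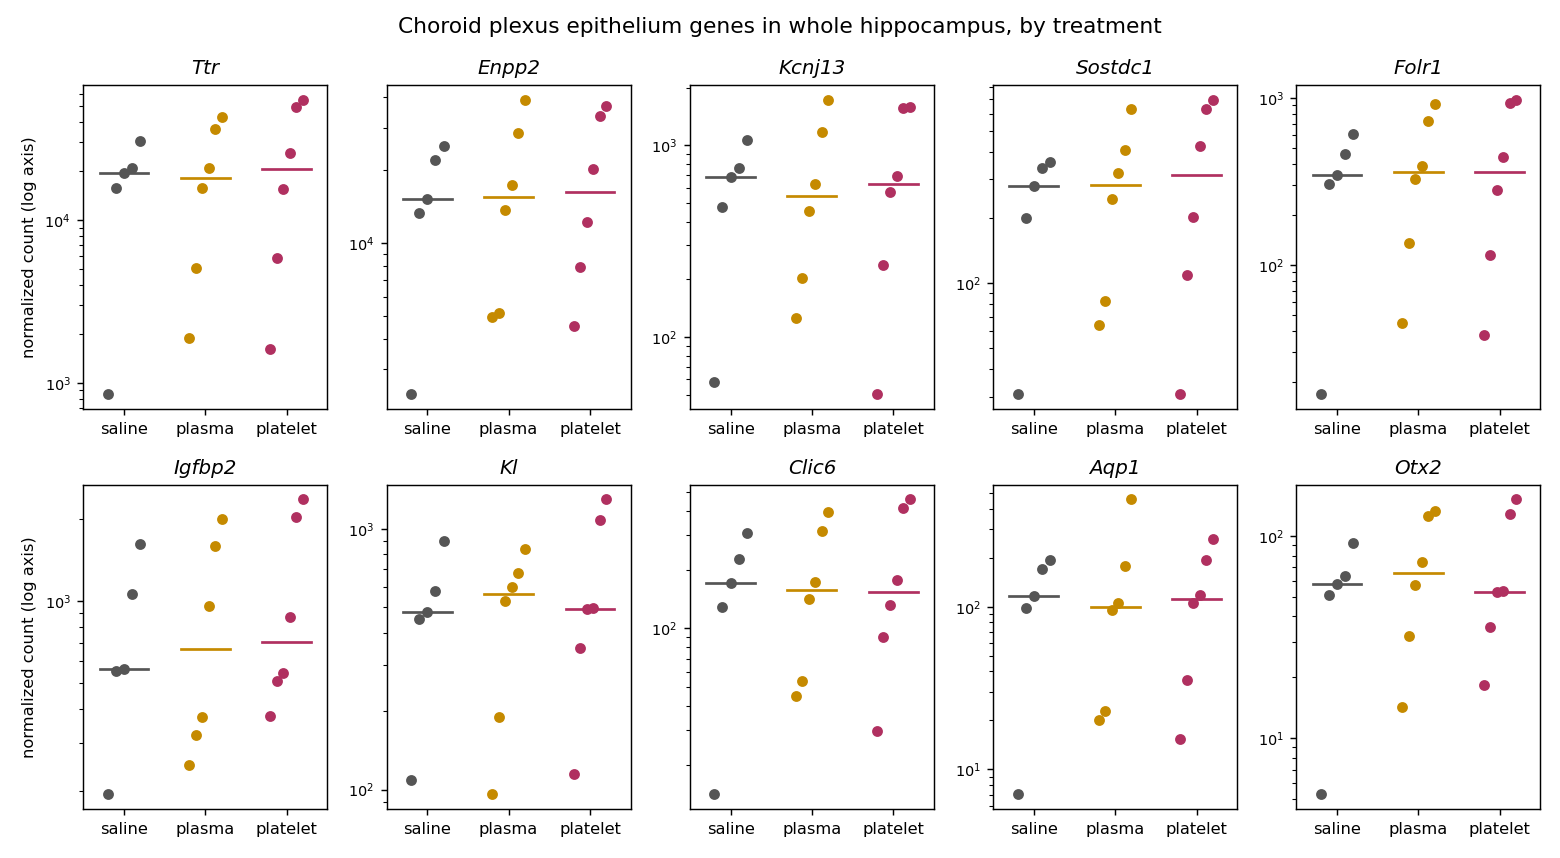
Normalized count of each of the 10 genes (log axis) in whole hippocampus by treatment, with 1 point a library, sorted within its group, and a line at the group median. In every panel the 3 groups overlap, and Ttr spans 848 to 54993.

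Compared per kilobase of annotated exon, the median level of normalized counts fell in the order Ttr (16323), Enpp2 (2617), Kcnj13 (495), Igfbp2 (305), Sostdc1 (156), Folr1 (151), Kl (53.0), Clic6 (43.5), Aqp1 (40.0) and Otx2 (13.6). Ttr stood above Enpp2, and Enpp2 above Kcnj13, in 17 of 17 hippocampi. The order was least stable in 3 neighbouring pairs. Kcnj13 was above Igfbp2 in 9 of 17 libraries, Sostdc1 above Folr1 in 7 of 17 and Clic6 above Aqp1 in 11 of 17. Of the remaining neighbours, Igfbp2 stood above Sostdc1 and Folr1 above Kl in 16 of 17, Kl above Clic6 in 14 of 17 and Aqp1 above Otx2 in 17 of 17. Exons of Kcnj13 share 623 bases with Gigyf2 on the opposite strand, and those of Enpp2 share 345 with Gm26684. Those of Otx2 share 154 bases with Otx2os1 on the opposite strand and 168 with Gm49154 on the same strand. Whether counting used the strand is not given in the sources used here, so reads of these pairs may have been split.

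The members varied together. On the log2 scale, as deviations from the group means over 17 hippocampi, Folr1 followed Ttr with Pearson's r = 0.998 and Spearman's rho = 0.990, the highest r to Ttr of 13905 genes compared. The slope was 0.94 ± 0.017 (SE), where 1 would mean that Folr1 changed by the same fold as Ttr. For Kcnj13, Sostdc1, Enpp2, Clic6, Aqp1 and Kl, r was between 0.970 and 0.987 and rho between 0.919 and 0.988, and each ranked among the 17 genes nearest to Ttr. Permutation of libraries within groups gave p = 1e-05 for both r and rho in each of these 7 genes, the smallest value that 100000 permutations can give, among 9 relations tested. The genes were chosen with earlier results of these data known, so these p-values describe the relation and are not independent support for it. Over all genes, 177 of 13905 (1.27%) had r above 0.8.

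Otx2 and Igfbp2 followed Ttr less closely. Otx2 had r = 0.928 (rho = 0.926, permutation p = 2e-05 and 1e-05), and Igfbp2 had r = 0.695 (rho = 0.841, permutation p = 0.00561 and 0.00015) and ranked 354. Without the 2 libraries farthest from the median of Ttr, platelet 7148 and saline 7152, r was 0.996 for Folr1, 0.871 for Otx2 and 0.799 for Igfbp2, and between 0.945 and 0.981 for the other 6. The slopes on Ttr fell from 0.94 for Folr1 through 0.86 for Kcnj13, 0.85 for Aqp1, 0.77 for Sostdc1 and 0.75 for Clic6 to 0.64 for Enpp2, 0.62 for Otx2, 0.61 for Kl and 0.43 for Igfbp2. Outside the plexus, Enpp2 is also known in oligodendrocytes, Igfbp2 in astrocytes and meninges, and Kl in neurons. Whether such cells bear on the slopes was not tested.

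**Figure D2:**
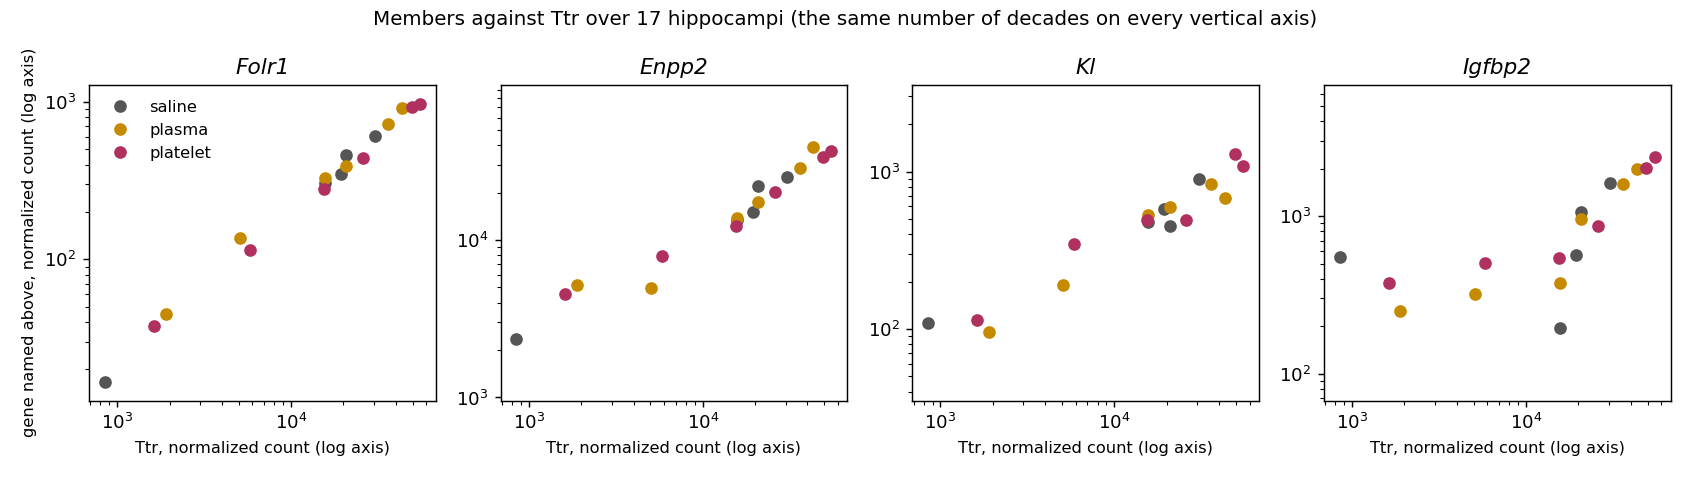
Normalized counts of Folr1, Enpp2, Kl and Igfbp2 against Ttr (log axes, the same number of decades on each vertical axis), 1 point a hippocampus, coloured by treatment. Folr1 lies close to a line of slope 0.94, Enpp2 and Kl rise less steeply, and the saline library at 848 for Ttr stands at 551 for Igfbp2.

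The genes outside the set with the closest variation were Cldn2, a claudin of the epithelium's tight junctions (r = 0.992), 1500015O10Rik (0.991), Col8a1 (0.988), Tmem72 (0.988), Sulf1 (0.985), Kcne2 (0.977), Epn3 (0.975), Sema3b (0.972), Steap1 (0.972) and the bicarbonate transporter Slc4a5 (0.972). Of 28 tested genes of a list of 30 further plexus genes, 19 had r above 0.9 with Ttr, and the median r of the 28 was 0.945. Among all 13905 genes compared, 74 had r above 0.9. Slc22a8, an organic anion transporter also known in brain endothelium, was the lowest of the 28 with r = -0.06. Slc29a4 (0.516), Slc12a2 (0.701), Msx1 (0.753) and Slc13a4 (0.794) were also under 0.8. In 12 ependymal cilia markers the median r was 0.587, and in 10 fibroblast markers 0.02, with Pcolce the highest at 0.866.

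Ratios within a library do not depend on its size factor, and show the proportions between the genes directly. Per 1000 Ttr reads, Folr1 had a median of 19.7 reads in hippocampus and ran only from 17.0 to 26.8, a 1.58-fold range against the 64.8-fold range of Ttr itself. Kcnj13 had 35.1 (26.6 to 68.5), Sostdc1 15.4 (11.3 to 36.3), Aqp1 6.23 (3.92 to 10.6), Clic6 9.03 (6.84 to 28.5) and Otx2 3.08 (2.02 to 16.9). Enpp2 had 852 (672 to 2798), Kl 29.7 (15.6 to 129) and Igfbp2 46.1 (12.4 to 649), the last a 52.3-fold range. The ranges of all 9 ratios overlapped between treated and control groups in each of the 4 treatment comparisons.

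For 7 of the 9 genes the highest ratio was in saline 7152, plasma 7150 or platelet 7148, the 3 libraries lowest in Ttr, and for 5 genes, Enpp2, Sostdc1, Igfbp2, Clic6 and Otx2, these 3 held the 3 highest ratios. The exceptions at the top were Folr1, highest in plasma 7594, and Aqp1, highest in plasma 7147, while Kcnj13 in platelet 7148 was at 30.9, under its median of 35.1. In saline 7152, plasma 7150 and platelet 7148, Enpp2 had 2788, 2714 and 2798 reads per 1000 Ttr reads, against 672 to 1367 in the other 14. Igfbp2 had 649, 131 and 233 there, against 12.4 to 86.9. Ttr made up 21.2%, 24.5% and 23.7% of the reads of the 10 genes in these 3 libraries and 38.2% to 55.3% in the others. The 3 libraries were picked by Ttr, the divisor of each ratio, and each slope on Ttr lay under 1. High ratios and a low share of Ttr in these 3 therefore follow in part from how they were picked. These 3 also were among 5 libraries, with saline 7146 and plasma 7147, set apart from the rest by the first component of a principal component analysis of all genes (25.2% of the variance). The part of that component in the ratios was not tested.

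Microglia libraries held either a trace of the members or a great deal. Ttr had normalized counts of 197500, 781 and 655 in saline microglia 2, 3 and 4, and of 884, 501960, 641 and 345810 in PF4 microglia 1 to 4. Enpp2 had 64531, 410 and 278 in saline and 841, 170540, 235 and 135480 in PF4 libraries. Saline 2, PF4 2 and PF4 4 were thus far above the other 4, and each treatment group held libraries of both kinds.

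The receptor and the secreted antagonist showed the same division. Folr1 had 3292, 19.7 and 12.1 in saline and 8.37, 6362, 13.9 and 5194 in PF4 microglia. Sostdc1 had 4408, 8.64 and 8.57 in saline and 9.13, 6292, 5.72 and 4987 in PF4 microglia. The channel genes also stood high in the same 3 libraries, with Kcnj13 at 2935, 10923 and 9695, Clic6 at 348, 3062 and 1487 and Aqp1 at 333, 1152 and 1007 in saline 2, PF4 2 and PF4 4. In the other 4 libraries Clic6 was at 1.52 to 5.71 and Aqp1 at 0 to 2.86, where Aqp1 in saline 3 had 0 reads, a count that allows up to 3 of the 21044292 in that library.

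In reads, the 10 genes together took 1.12%, 2.91% and 1.97% of saline 2, PF4 2 and PF4 4, and 0.00381% to 0.00774% of the other 4 libraries. Ttr ranked 9, 3 and 5 among all genes by reads in the first 3. In whole hippocampus the 10 genes took 0.0527% to 1.34% of reads. Summed microglia markers were high in all 7 libraries (688630 to 1008600, with none of 8 at 0), against 4775 to 6995 in whole hippocampus. The tables of the 2 tissues were normalized separately, and tissue and experiment cannot be told apart.

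**Figure D3:**
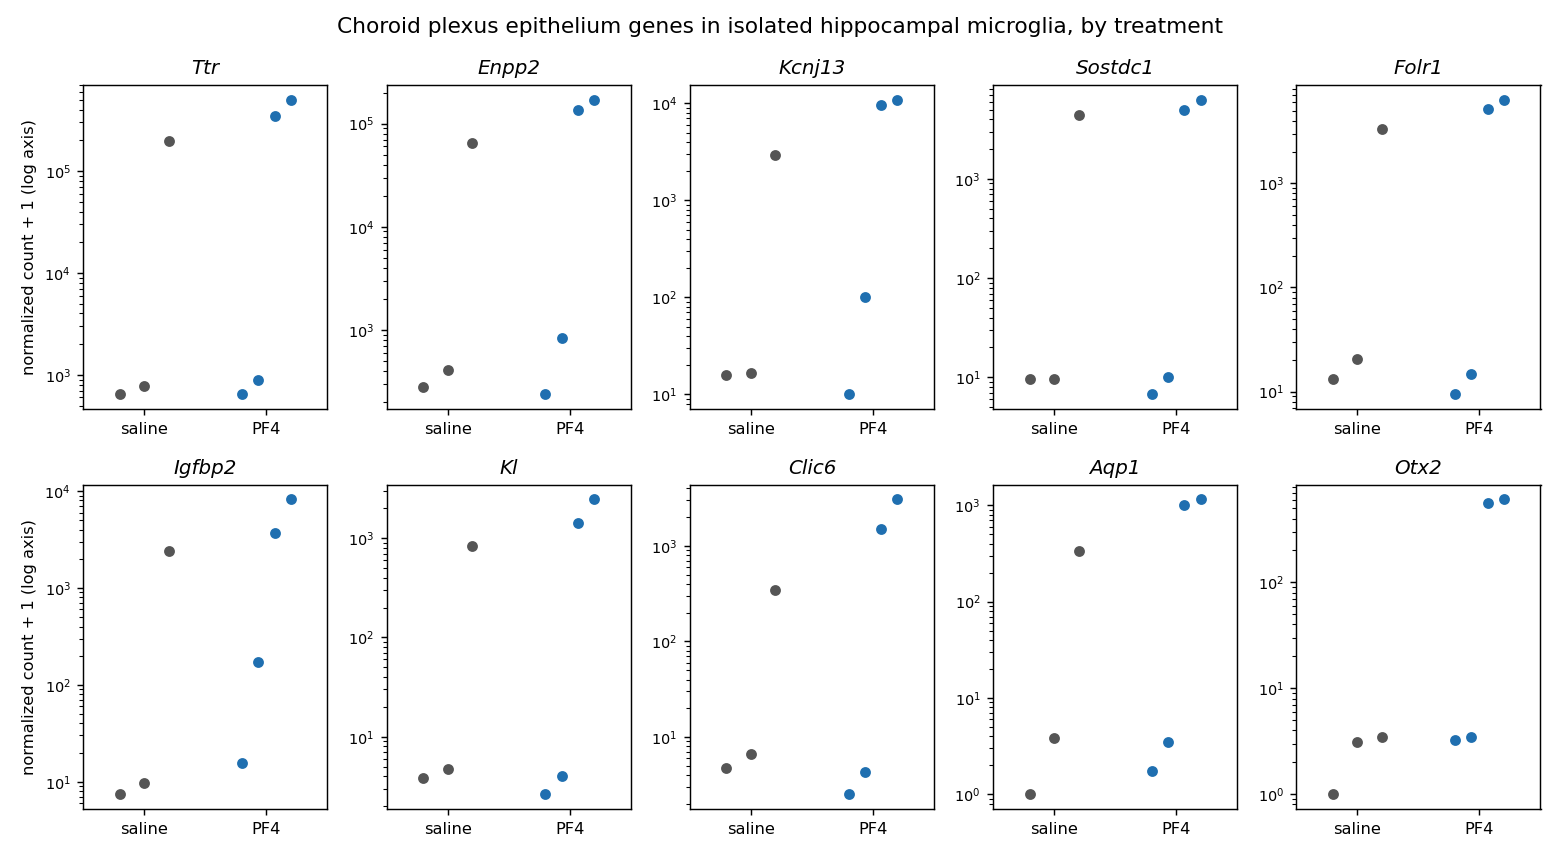
Normalized count + 1 of each of the 10 genes (log axis) in isolated hippocampal microglia, 1 point a library, sorted within its treatment group. In 9 genes 1 of 3 saline and 2 of 4 PF4 libraries lie far above the rest, and for Otx2 only the 2 PF4 libraries do.

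Single libraries lacked a member that stood high beside its partners. Otx2 had 605 and 555 in PF4 2 and PF4 4 but 2.48 in saline 2, which was 2 reads beside 159100 of Ttr. That is 0.0126 Otx2 reads per 1000 Ttr reads (95% exact interval 0.00152 to 0.0454, counting error only), against 1.20 in PF4 2 and 1.61 in PF4 4. Of the 30 further plexus genes, 5 were at 0 in saline 2. Of these 5, Cldn3 and Lrp2 were at 0 in PF4 2 and PF4 4 as well, whereas Lbp (883 and 408), Slc16a8 (802 and 242) and Abca4 (928 and 468) were not. Another 5 were above 0 and under 10 in saline 2, namely Krt18 (2.48), Krt8 (4.97), Slc29a4 (6.21), Tmem72 (7.45) and Mfrp (9.93), and 19 were at 100 or more. These genes were singled out after their values were seen.

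The reverse also occurred. PF4 1, at a trace of most members, held 130 Kcnj13 reads beside 1162 of Ttr, or 112 per 1000 (95% exact interval 92.6 to 134). The other 6 microglia libraries held 14.0 to 28.0, and exons of Kcnj13 overlap those of Gigyf2, as given above. Enpp2 in PF4 1 was at 951 per 1000, on 1105 reads, against 327 to 524 in the other 6. PF4 3 held 211 Igfbp2 reads beside 784 of Ttr, or 269 per 1000 (230 to 314), against 9.81 to 16.4. Kl was even across all 7 microglia libraries, at 2.55 to 4.89 per 1000 Ttr reads, although 4 of these values rest on 2 to 4 reads each, so that their intervals reach from 0.308 to 13.9.

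Set beside hippocampus, the microglia libraries held less of each member per Ttr read at the median. These medians pool libraries high in the members with libraries at a trace, where Clic6, Aqp1 and Otx2 rest on 0 to 8 reads. Sostdc1 was at 22.3 per 1000 in saline 2 but at 12.5 and 14.4 in PF4 2 and PF4 4. Kl had a median of 4.24 reads per 1000 Ttr reads in microglia and 29.7 in hippocampus, and its ranges did not overlap (2.55 to 4.89 against 15.6 to 129). For the other 8 genes the ranges overlapped. Enpp2 had 392 against 852, Igfbp2 12.3 against 46.1, Kcnj13 21.8 against 35.1 and Aqp1 2.30 against 6.23. Folr1, at 16.7 against 19.7, and Sostdc1, at 12.5 against 15.4, came nearest to the same proportion in both. No test was made, since the libraries of the 2 tissues come from separate experiments.

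**Figure D4:**
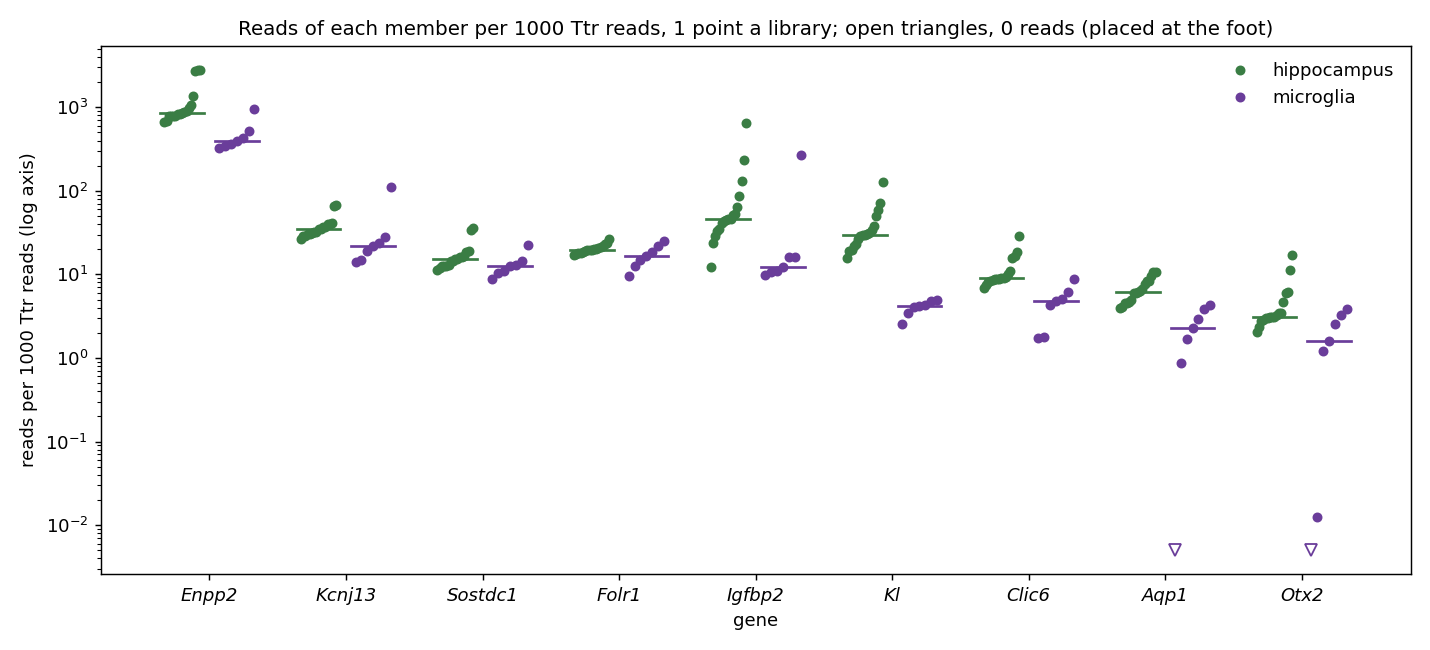
Reads of 9 genes per 1000 Ttr reads (log axis), 1 point a library, for 17 hippocampi and 7 microglia libraries, with a line at each median and open triangles at the foot for 0 reads. Folr1 spans 17.0 to 26.8 in hippocampus, Kl does not overlap between the tissues, and 1 Otx2 point lies at 0.0126.

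No member passed the test after either blood preparation, and the spread between mice was larger than the differences between groups. After young plasma, 0 of 10 members passed the unadjusted P of 0.05 used by the study, beside 3.35% of 13594 genes tested (limma on log2 of normalized count + 1). Ttr was 1.18-fold the saline level with a 95% interval of 0.277 to 5.04 (unadjusted P = 0.808, exact permutation p = 0.814). The median log2 fold change was 0.21 over the members and -0.01 over all genes, and 9 of 10 had a higher value after plasma, Kl (-0.11) being the exception. The smallest P, for Otx2, was 0.493 in limma, and its fold change was 1.41 (0.493 to 4.04).

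After the young platelet fraction, 0 of 10 members passed the same threshold, beside 3.87% of 13603 genes. Ttr was 1.34-fold the saline level (0.298 to 6.00), Folr1 1.28-fold (0.304 to 5.36), and Igfbp2, with the smallest P of 0.434 in limma, 1.37-fold (0.592 to 3.17). The values of all 10 were higher than in saline, with a median log2 fold change of 0.32. Most members varied together with Ttr, so neither this count nor that after plasma is one of independent observations. Both comparisons use the same 5 saline libraries, of which 7152 was at 848 for Ttr. Without saline 7152 the log2 fold change of Ttr was -0.68 after plasma and -0.50 after the platelet fraction, still with 0 members past the threshold. The direction for Ttr thus did not hold without that library. After plasma it also did not hold without plasma 7147 or without plasma 7156, so it does not rest on saline 7152 alone. Igfbp2 was not low there, at 554 against a saline median of 566 in the scale of the platelet comparison.

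Between the preparations, 0 of 10 members passed, beside 1.87% of 13547 genes. Ttr was 1.13-fold higher in value after the platelet fraction than after plasma (0.298 to 4.31), and the median log2 difference of the members was 0.08. No gene at all reached an adjusted p under 0.05 in limma in any of the 4 comparisons. The standard errors of the members were 0.56 to 1.01 on the log2 scale in the hippocampal comparisons, against a median of 0.16 to 0.17 over all genes. The 95% intervals of Ttr reached from 0.277 to 6.00 times over these comparisons, whereas narrower ones were 0.592 to 3.17 for Igfbp2 after the platelet fraction and 0.433 to 2.37 for Otx2 between the preparations.

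With log2 Ttr of the library as a term in the fit, the log2 differences of the other 9 members could be read relative to Ttr. After plasma they ran from -0.25 for Kl to 0.34 for Otx2, and after the platelet fraction from -0.24 for Aqp1 to 0.32 for Igfbp2. The smallest unadjusted P in limma was 0.150 after plasma, for Kl, and 0.129 after the platelet fraction, for Kcnj13, at -0.23. Enpp2 stood at 0.02 and 0.04 in these fits. In these fits 0 of 9 members passed the threshold in either comparison. The share of all genes that passed in the same fits is not given here, and the 3.35% and 3.87% above are of the fits without this term.

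Other genes of the plexus and its partners were read from fixed lists. In the list of 30 further plexus genes, 28 were tested and 0 passed in either direction after plasma or the platelet fraction, with median log2 fold changes of 0.16 and 0.19. Of 16 tested partners of the members, meaning ligands, receptors and carriers that act with them, 1 passed in each comparison. Of all genes tested, 3.35% and 3.87% passed, so 1 of 16 is not read as a result about the partners. Both comparisons use the same 5 saline libraries. The gene was Lpar1, a receptor for the lysophosphatidic acid that Enpp2 makes. Its normalized count was 373 ± 74.9 (SD, n = 5) in saline and 541 ± 126 (n = 6) after plasma, a fold change of 1.43 (1.10 to 1.87, unadjusted P = 0.0118, adjusted p = 0.9997 in limma). After the platelet fraction it was 597 ± 105 (n = 6) against 375 ± 75.2 in the scale of that table, 1.59-fold (1.27 to 2.00, unadjusted P = 0.000667, adjusted p = 0.888 in limma). Lpar1 is also known in oligodendrocytes, and all 6 oligodendrocyte markers of another list passed in both comparisons, with median log2 fold changes of 0.52 and 0.67. The part of those cells in the Lpar1 result was not tested.

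Of neighbouring cell types, the ependymal cilia markers had higher values in 12 of 12 genes after both preparations, with 2 and 3 past the threshold and medians of 0.56 and 0.74 on the log2 scale. Of all genes tested, 3.35% and 3.87% passed, none of them at an adjusted p under 0.05 in limma. The 2 comparisons share the 5 saline libraries, so the second is not an independent repeat of the first. Markers of the same cell type can rise and fall together, so these 12 genes are not 12 independent observations. Fibroblast, endothelial, neuron and border macrophage markers had 0 past the threshold in either comparison. Of 8 microglia markers 0 passed after plasma and 1, Tmem119, after the platelet fraction, where it was lower. Of 6 astrocyte markers, Slc1a3 alone passed, lower after the platelet fraction. Of the red cell markers, Hba-a1 was higher after the platelet fraction.

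No member passed the test between PF4 and saline microglia. Of 9 members tested, 0 passed the unadjusted P of 0.01 used by the study, beside 0.389% of 11320 genes, and Otx2 did not pass the filter on low values, its means differing by 4.32 on the log2 scale (exact permutation p = 0.171). Ttr was 3.80-fold the saline level with an interval of 0.0526 to 275 (unadjusted P = 0.502 in limma, exact permutation p = 0.400, where 3 libraries against 4 cannot go below 0.0571). The smallest P was 0.233 in limma, for Igfbp2, at 9.54-fold (0.181 to 502). The median log2 fold change of the 9 was 1.93, and the standard errors of 2.56 to 3.12 exceeded it. Without saline 2, PF4 2 and PF4 4, which leaves 2 libraries in each group, 5 members were tested, 0 passed, and the median was 0.40. The share of all genes that passed in that fit is not given here.

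The 3 libraries high in Ttr differed from the rest in other lists too. Ependymal cilia markers summed to 1663, 2875 and 2104 in saline 2, PF4 2 and PF4 4 and to 107 to 312 in the other 4, and fibroblast markers to 1496, 2631 and 2731 against 5.72 to 110. A few genes carried these sums. Pcolce, the fibroblast marker nearest to Ttr in hippocampus, gave 824, 2372 and 1561 of them and Islr 1140 in PF4 4, while Dcn was at 463, 208 and 0. Among ependymal markers Tppp3 gave 608, 935 and 673 and Cfap126 384, 670 and 669. Between 4 and 6 of 12 ependymal and 4 and 6 of 10 fibroblast markers were at 0 in the first 3, among them Cdhr3 and Col3a1. The further plexus genes summed to 19640, 52494 and 36910 there and to 2654 to 4592 elsewhere. The sums of endothelial (7165 to 49893), border macrophage (2585 to 12679), astrocyte (7192 to 31908), neuron (1.24 to 413), oligodendrocyte (1190 to 189740) and red cell markers (230 to 24612) did not divide the libraries in this way. Red cell markers did so except in PF4 1. They summed to 21684, 24612 and 8968 in saline 2, PF4 2 and PF4 4, to 1630, 900 and 230 in saline 3, saline 4 and PF4 3, and to 9955 in PF4 1. Of 21 further plexus genes tested, 0 passed the threshold between PF4 and saline, and likewise 0 of 12 partners, beside 0.389% of 11320 genes.

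**Figure D5:**
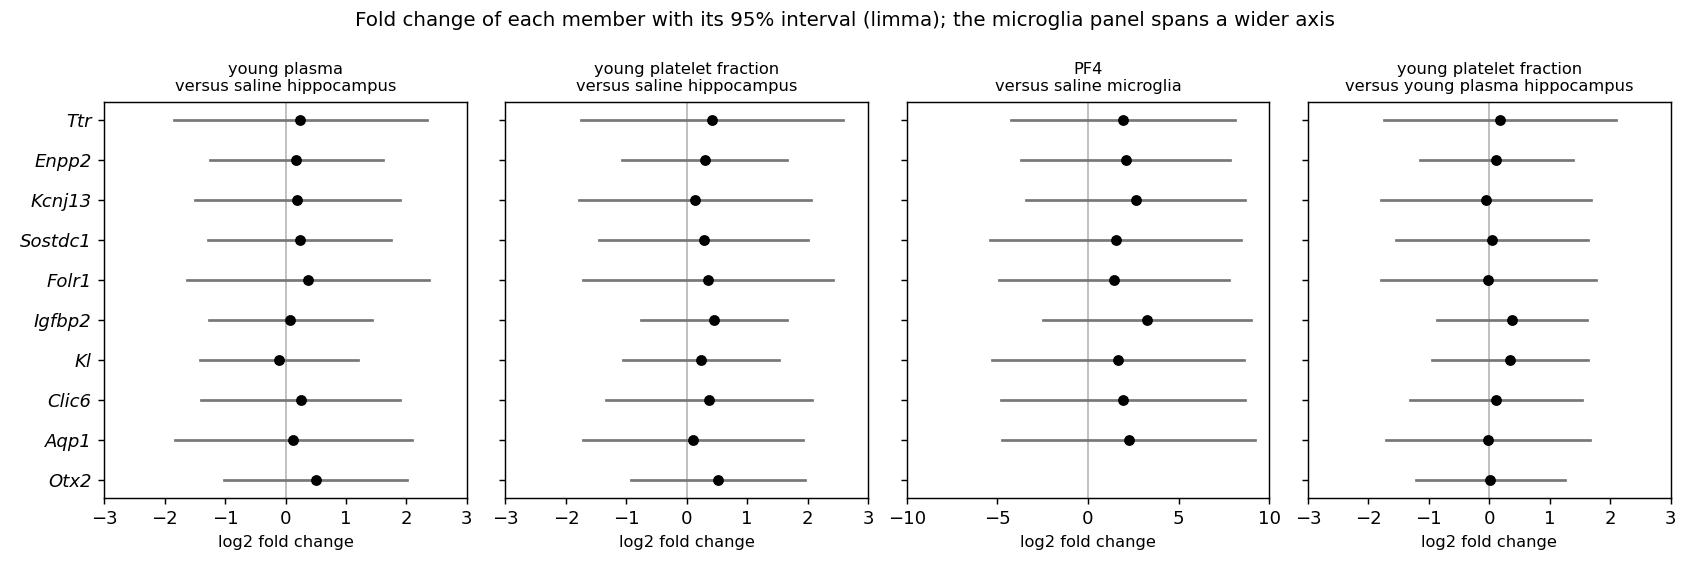
Log2 fold change of each gene with its 95% interval from limma in the 4 comparisons, 1 panel each, with a line at 0. All intervals include 0, and the microglia panel, on a wider axis, holds no value for Otx2.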

How the data were processed

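By the submitters' notes and the study's methods, the authors used STAR for alignment to mm10 and RSEM for counting, and deposited a signal per gene and library, which is its reads over a size factor from DESeq2 (normalized count), in 3 tables of 24411 genes. The deposited tables also hold the authors' fold changes and p-values, which were not used. The labels name a strand-specific poly(A) kit and the study's methods a modified Smart-Seq2 protocol with PCR and no molecular identifiers, so intervals on reads cover counting error only. Values were whole multiples of 1 step per library, within a tolerance of 0.01 of a read, for 100% of values, which gave the reads. Depth was 6140510 to 10522699 reads in saline, 6586357 to 7739868 in plasma and 6763608 to 7438930 in platelet hippocampi, and 19855188 to 36342162 in saline and 25401175 to 31649835 in PF4 microglia.

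Log2(normalized count + 1) of genes at 10 or more in at least 5 hippocampal, 3 microglia or, between the preparations, 6 libraries entered limma 3.58.1 (R 4.3.3), the variance trended on the mean, and p was adjusted by Benjamini-Hochberg over all genes tested. A pseudocount of 1 understates the change of low genes. Platelet libraries were put on the scale of the plasma table through the 5 shared saline libraries for levels and for the comparison of both preparations. Exact permutation tests over libraries were two-sided. Alternatives were other pseudocounts, filters, TMM, edgeR 4.0.16 and DESeq2 1.42.0 on recovered reads, log2 Ttr as covariate, all 17 hippocampi in 1 fit, and leaving out libraries. The fits were tested on simulated data. Exon lengths are from GENCODE M21. The 10 genes, the lists and the alternatives were chosen with earlier results of these data known, and the alternative without the 3 microglia libraries high in Ttr was added after these data were seen. Named genes are the 10 members, the 10 others nearest to Ttr in hippocampus by Pearson's r with a mean of at least 20, and up to 4 genes of each list. The same ranking over microglia was not made, since those libraries fall into 2 separate sets.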

Additional observations from a re-analysis of the deposited data

Results flagged for a closer look

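In groups of 4 to 10 libraries, values whose gap to the nearest other library took more of the group's range than Dixon's 95% limit were picked out. Of 76 groups of values tested, 18 were, while chance gives about 1 in 20, and many share a library or the Ttr reads they are divided by. Most were reads per 1000 Ttr reads in the 3 hippocampi lowest in Ttr.

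In saline hippocampus 7152 these were Enpp2 at 2788, Kcnj13 at 68.5, Sostdc1 at 36.3, Igfbp2 at 649, Kl at 129 and Otx2 at 6.23. In young plasma hippocampus 7150 they were Enpp2 at 2714, Kcnj13 at 66.4, Sostdc1 at 33.7, Igfbp2 at 131, Clic6 at 28.5 and Otx2 at 16.9. In young platelet hippocampus 7148 they were Enpp2 at 2798 and Igfbp2 at 233.

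In microglia, PF4 1 stood apart for Enpp2 at 951 and Kcnj13 at 112 reads per 1000 Ttr reads, and PF4 3 for Igfbp2 at 269. Of the normalized counts, Aqp1 stood apart at 456 in young plasma hippocampus 7147. The causes were not tested.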

How the results depend on the processing

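Counts of members past the threshold were 0 in each of the 4 comparisons under each alternative run there. Pseudocounts of 0.5 and 5, no filter and one at 50, TMM, edgeR and DESeq2 on recovered reads, and leaving out libraries were run in all 4. Log2 Ttr as covariate was run only in the comparisons with saline, and all 17 hippocampi in 1 fit only in the hippocampal comparisons with saline. The share of all genes past the threshold under each alternative is not given here. Directions of members varied, since of 754 fold changes under alternatives, 114 changed sign, 85 of them when 1 library was left out, and 0 passed the threshold. With 1 library left out log2 fold changes after plasma ran over Aqp1 -0.69 to 0.54, Clic6 -0.49 to 0.60, Enpp2 -0.41 to 0.48, Folr1 -0.54 to 0.89, Igfbp2 -0.35 to 0.42, Kcnj13 -0.53 to 0.58, Kl -0.59 to 0.29, Otx2 -0.18 to 0.88, Sostdc1 -0.40 to 0.59 and Ttr -0.68 to 0.80. Those after the platelet fraction ran over Aqp1 -0.72 to 0.58, Clic6 -0.38 to 0.83, Enpp2 -0.29 to 0.64, Folr1 -0.56 to 0.92, Kcnj13 -0.59 to 0.78, Kl -0.24 to 0.65, Otx2 -0.16 to 0.83, Sostdc1 -0.35 to 0.85 and Ttr -0.50 to 1.06. Those between the preparations ran over Aqp1 -0.43 to 0.46, Clic6 -0.21 to 0.57, Enpp2 -0.18 to 0.46, Folr1 -0.54 to 0.56, Kcnj13 -0.45 to 0.59, Kl -0.057 to 0.76, Otx2 -0.37 to 0.34, Sostdc1 -0.30 to 0.61 and Ttr -0.38 to 0.82. Those in microglia ran over Folr1 -0.10 to 3.98. Such ranges are given only for members whose sign changed, and the others kept their sign in each such fit in which they were tested. With log2 Ttr as covariate the sign changed for Aqp1 -0.087, Igfbp2 -0.011, Kcnj13 -0.0013 after plasma, Aqp1 -0.24, Folr1 -0.048, Kcnj13 -0.23, Kl -0.0066, Sostdc1 -0.047 after the platelet fraction, Folr1 -0.42, Kl -0.24, Sostdc1 -0.49 in microglia. Without the libraries that stood apart the sign changed for Aqp1 -0.68, Clic6 -0.46, Enpp2 -0.35, Folr1 -0.26, Kcnj13 -0.46, Otx2 -0.29, Sostdc1 -0.26, Ttr -0.43 after plasma, Aqp1 -0.14 after the platelet fraction, Aqp1 0.54, Folr1 0.32, Kcnj13 0.55 between the preparations. Without the 3 microglia libraries highest in Ttr the sign changed for Folr1 -0.48 in microglia. In edgeR the sign changed for Folr1 0.12, Kcnj13 0.11, Otx2 -0.0018 between the preparations. In DESeq2 the sign changed for Folr1 0.13, Kcnj13 0.12 between the preparations. The cause of these changes was not tested, beyond that saline 7152, at 848 for Ttr, gave the lowest values after plasma in 9 members and after the platelet fraction in 9 when it was left out. The saline and PF4 microglia share the numbers 2 to 4, whose deviations from the group means correlated at 0.136, 0.0586 and 0.0321, so the numbers were not taken as pairs. With the replicate block on these 3 pairs the median log2 fold change of the members was 3.37, Igfbp2, the lowest in unadjusted P with 0.0166 in limma, was at 4.96, and 0 of 9 passed. Depth limits ratios that rest on few reads, such as those on 0 to 4 reads in microglia libraries at a trace of the members, Otx2 in saline microglia 2 (2 reads), and Otx2 (6 reads) and Aqp1 (8 reads) in saline hippocampus 7152.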
